A study of Arabidopsis thaliana with 40 samples.

Results

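Seedlings of Arabidopsis thaliana given a nitric oxide donor together with a nitric oxide scavenger for 16 h were compared with seedlings given water, by the level of H3K9/14ac, a form of histone H3 acetylated at lysine 9 or 14. The donor was S-nitrosoglutathione (GSNO, 250 µM) and the scavenger was cPTIO (500 µM). The comparison covers all 13362 regions of the authors' deposited table for this treatment and time, the same 13362 regions that the whole series reports, together with the peak lists of 4 of its 40 samples. These 4 are 2 ChIP libraries of GSNO with cPTIO and 2 of water, the solvent control, which the design text calls biological replicates. All seedlings were Col-0, 7 days old per the labels, and were kept in shaken liquid medium with sucrose under short days, so roots and shoots were collected together. Seedlings given GSNO alone (250 µM) or glutathione (GSH, 250 µM) for 16 h, and seedlings given GSNO with cPTIO or water for 3 h, serve as companions. Ranks over all 17 recovered libraries also use GSNO, GSH and trichostatin A (TSA, 5 µM, a histone deacetylase inhibitor), each given for 3 h. None of the 40 samples was given cPTIO without GSNO, so an effect of cPTIO itself cannot be told apart. Each sample pools many whole seedlings, so a smaller share of acetylated cells and less acetylation per cell cannot be told apart.

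Histone acetyltransferases place acetyl groups on the tail of histone H3 and histone deacetylases remove them. In plants the mark sits over the start and the first part of transcribed genes, and its level usually follows how actively a gene is used. GSNO is a natural store of nitric oxide that releases it and can pass its nitroso group to cysteines of proteins, among them deacetylases. cPTIO oxidises free nitric oxide to nitrogen dioxide, so GSNO with cPTIO asks what GSNO does while free nitric oxide is being trapped.

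The deposited tables hold group means, from which whole reads per library were recovered (library a is the shallower of a pair and carries no replicate number). The 16 h tables hold a single water library with 1590342 reads in the regions, beside 1686093 and 2038442 reads in the GSNO with cPTIO libraries. The GSNO and GSH libraries of 16 h hold 1773594 to 3674371 reads. Values below are scaled reads, which are reads times 1 factor per library set over these 7 libraries, and intervals and floors cover counting error only. The 2 GSNO with cPTIO libraries differed from each other by over 2-fold at 6.09% of regions, against 2.99% for the GSNO pair and 0.943% for the GSH pair. Some shoot and some root genes were marked. Of the matched marker genes, 7 of 14 for the shoot and 2 of 13 for the root had a region. The regions of the leaf polarity gene KAN held 188, 192 and 136 scaled reads in GSNO with cPTIO a, b and water, and the root patterning gene SCR held 668, 496 and 643.

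Few regions differed from water by the test after 16 h of GSNO with cPTIO. The log2 folds over water in the authors' deposited table had an SD over regions of 0.490 around a median of 0.0033. Libraries were scaled so that most regions are level, which sets that median near 0, and a change of acetylation shared by all regions cannot be seen. The 95% limma interval of the difference from water lay within 2-fold either way at 60.2% of regions. Of the 13362 regions, 318 were more than 2-fold above water and 227 more than 2-fold below it in the authors' deposited table. At a false discovery rate (FDR) under 0.05, 61 regions (0.457%) rose and 14 (0.105%) fell by the test of the authors' deposited table. Another 710 regions, which makes 785 or 5.87% in all, had an unadjusted p under 0.05 in the authors' deposited table. The limma test on the recovered reads, in which the lone water library is assumed to vary like the other groups, called 12 higher (0.0898%) and 1 lower (0.00748%), with 1346 (10.1%) at an unadjusted p under 0.05. Of these 13 regions, 12 were among the 75 of the authors' deposited table. Leaving out GSNO with cPTIO library a raised the limma count to 49 (33 higher, 16 lower), and leaving out library b raised it to 274 (96 higher, 178 lower).

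**Figure D1:**
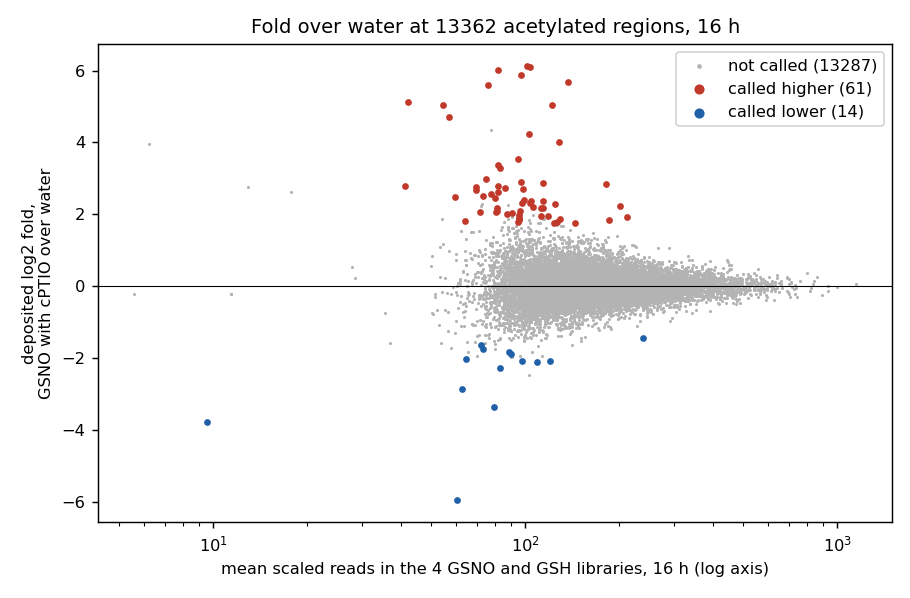
Each point is 1 of 13362 regions. The horizontal axis (log scale) is the mean of scaled reads in the 4 GSNO and GSH libraries of 16 h, which the fold does not use, and the vertical axis is the authors' deposited log2 fold of GSNO with cPTIO over water. Red points are the 61 regions called higher and blue points the 14 called lower, nearly all at regions of low or middle level.

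The spread of the fold narrowed with the level of a region. In the decile of regions with the lowest level in the GSNO and GSH libraries, 17.1% were beyond 2-fold of water in the authors' deposited table, and 36 rose and 11 fell. In the highest decile 0 of 1337 regions were beyond 2-fold and 0 were called. All 61 regions that rose lay in the lowest decile by water level, a level that the fold itself uses, where the authors' deposited table gave a median log2 fold of 0.51. Their median width was 708 bases, against 720 bases for all regions. Of the 61, 56 overlapped a protein-coding gene (91.8%), against 97.6% of all regions, and all 14 that fell did so.

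The largest rises were at regions where the water library held 1 to 5 reads. The region over AT1G14130 (chromosome 1, 4836843 to 4837603) held 83 and 79 reads in GSNO with cPTIO a and b and 1 read in water. It was at least 23.5-fold above water against a floor of 3 reads per library, its log2 fold was 6.14 in the authors' deposited table (FDR 7.78e-09), and the limma fold was 5.43 ± 0.67 (SE, adjusted p = 0.0017). The companions stood as high, with 125 and 102 scaled reads in GSNO, 82.5 and 97.6 in GSH, 124 and 96.6 in GSNO with cPTIO, and 1.57 in water. The file of gene names used here gives this locus no name.

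FBS4 encodes a stress-induced F-box protein, the part of a ubiquitin ligase that picks its targets. Its region (chromosome 4, 17019115 to 17019938) held 57 and 62 reads in GSNO with cPTIO and 1 read in water, at least 17.1-fold higher, with a limma log2 fold of 4.99 ± 0.63 (SE, adjusted p = 0.0017). GSNO held 185 and 124 scaled reads there and GSH 107 and 130, all above the 85.0 and 75.8 of GSNO with cPTIO. CYP81H1, a cytochrome P450, held 85 and 64 reads against 2 in water, a ratio of 32.0 with a 95% counting interval of 8.70 to 266. Both GSNO with cPTIO libraries lay above water there, at 127 and 78.2 scaled reads against 3.13, and the other 4 libraries of 16 h lay between 114 and 129. BBX8, a B-box zinc finger protein, held 37 and 22 reads against 1, at least 8.74-fold higher, and its limma adjusted p was 0.308.

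The other 8 of the 12 largest rises were of the same kind. AT1G07930 (59 and 94 reads against 1) was at least 21.6-fold higher, AT4G27270 (62 and 76 against 1) at least 19.7-fold, AT2G34730 (77 and 31 against 1) at least 16.3-fold and AT2G15830 (34 and 48 against 1) at least 11.6-fold. AT1G07930 has near-identical copies nearby and AT4G27270 overlaps AT4G27280, and the counting of reads that match several places is not stated. A region with no protein-coding gene within 1000 bases on chromosome 3 (17911969 to 17912686) was at least 22.8-fold higher and one on chromosome 4 (12474763 to 12475387) at least 11.0-fold. AT1G61150 held 78 and 99 reads against 4 and AT5G47430 held 106 and 79 against 5, with limma log2 folds of 4.04 ± 0.56 and 3.82 ± 0.49 (SE, adjusted p = 0.0027 and 0.0017). The rule for naming these 12 regions required both GSNO with cPTIO libraries to lie above water. Among the 12, the limma test called 8. It did not call BBX8, AT2G34730, AT2G15830 or the chromosome 4 region.

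**Figure D2:**
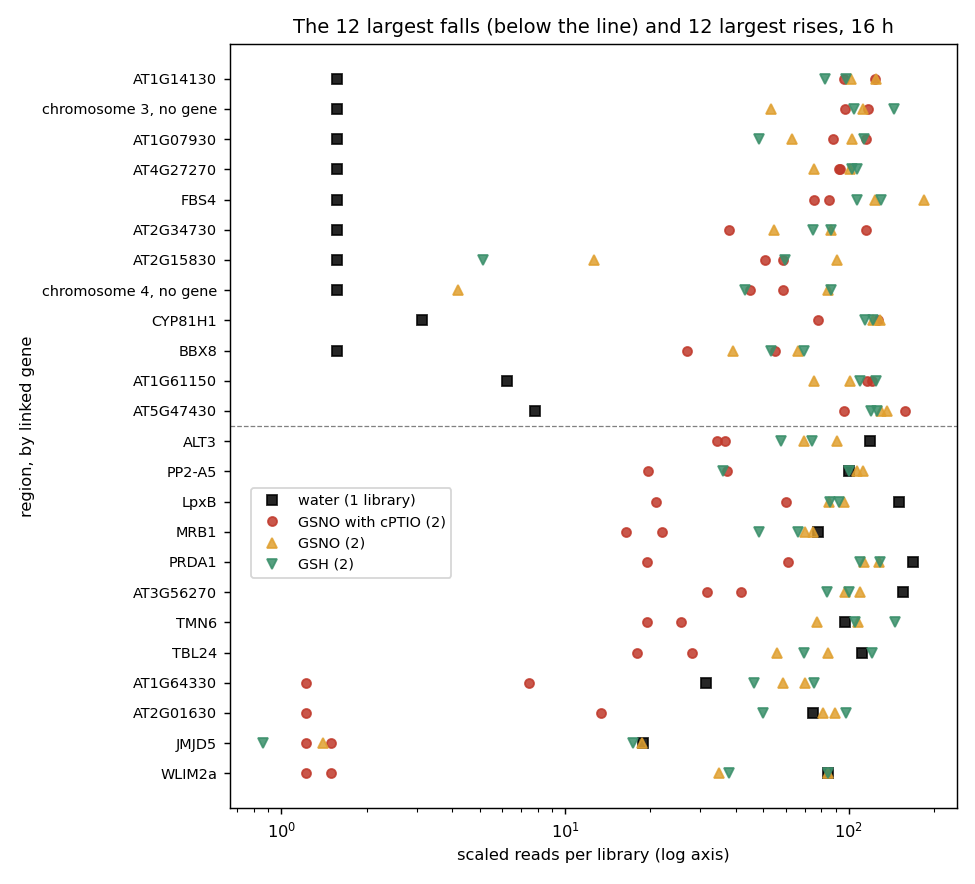
Scaled reads (log axis) at the 12 regions with the largest rises (above the dashed line) and the 12 with the largest falls, 1 symbol per library of 16 h. Above the line the black square of water stands alone at 1.57 to 7.83 with the companions beside GSNO with cPTIO, and below it the red circles of GSNO with cPTIO mostly stand alone on the left.

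The remaining 49 regions that rose had log2 folds of 1.75 to 3.55 in the authors' deposited table. The genes given here were picked from them after their values were seen, for their known roles. How often such roles occur among all regions was not counted. Transport was represented by STP1, a sugar-proton symporter, where scaled reads were 234 and 204 in GSNO with cPTIO and 47.0 in water (limma adjusted p = 0.0017). The calcium pumps ACA4 and ACA8, the polyamine carrier PUT1 and the lipid flippase ALA2 also rose by the FDR of the authors' deposited table. PUT1 held 221 and 169 scaled reads against 45.4 in water, and ALA2 held 92.5 and 94.1 against 12.5. The beta-galactosidase gene BGAL4 held 155 and 227 scaled reads against 26.6 in water (limma log2 fold 2.77, adjusted p = 0.0022). The sterol gene SQE2 (squalene epoxidase), the peroxisomal acyl-CoA synthetase gene LACS7, the cytokinin glucosyltransferase gene UGT76C2 and the xylan synthesis gene GUT2 rose as well, with log2 folds between 2.19 (LACS7) and 2.69 (SQE2) in the authors' deposited table. Protein turnover was represented by the ubiquitin-conjugating enzyme gene UBC3 (1.78) and the ER ubiquitin ligase gene Hrd1B (2.98), both log2 folds of the authors' deposited table.

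At the 61 regions that rose, the water library was low and the GSNO with cPTIO libraries stood among the rest. On a scale set over all 17 recovered libraries, the median over the 61 regions was 116 scaled reads in each GSNO with cPTIO library and 20.0 in water of 16 h. These regions were chosen by these water and GSNO with cPTIO libraries, so that contrast is a description. The other 14 libraries, among them water of 3 h with 104 and 119, had medians between 90.6 and 138, the highest in a TSA library. Water of 16 h was below the 16 other libraries at 54 of the 61 regions, against 8.26% of all regions. That rank is partly built in, since the 61 were chosen for low water beside GSNO with cPTIO. Both GSNO with cPTIO libraries were above the 15 others at 3 of the 61, against 2.53% of all regions, and these 3 were HSA32, AT5G55970 and UBC3. The tables of GSNO and of GSH use the same water library, so their values are no independent support. Of the 61, 45 were also called higher for GSNO and 56 for GSH in the authors' deposited tables, against 0.913% and 2.09% of all regions. Over the 61 regions the median log2 fold was 2.41 for GSNO with cPTIO, 2.24 for GSNO and 2.31 for GSH, each in the authors' deposited table for that treatment.

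**Figure D3:**
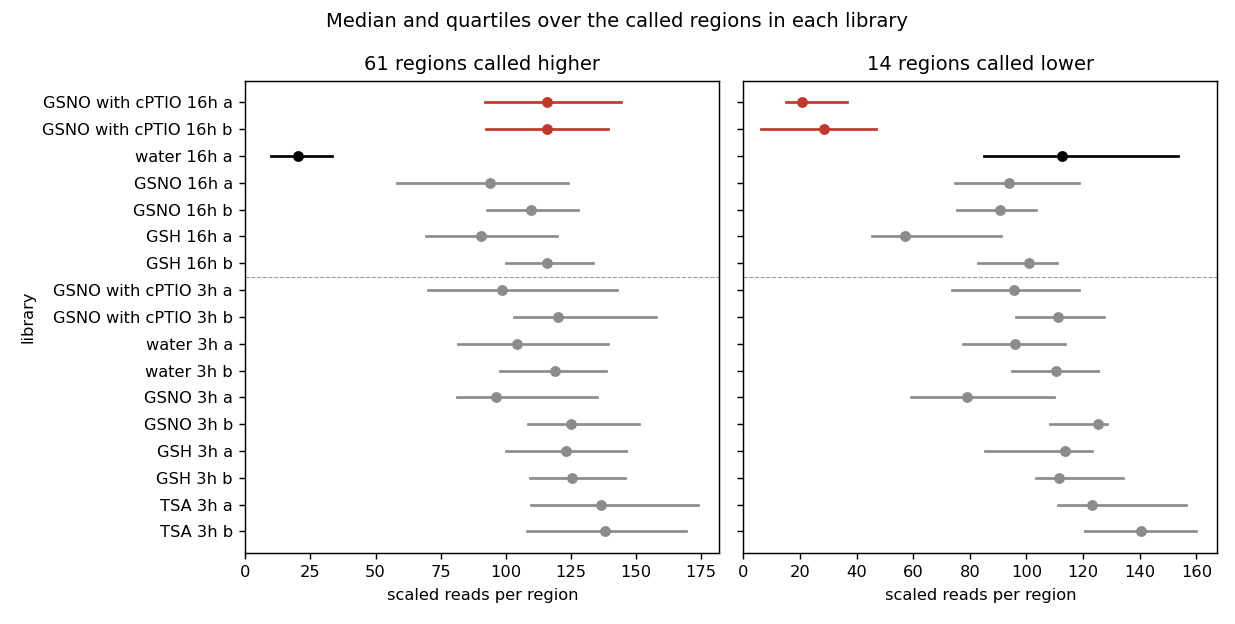
Points are medians and lines are quartiles of scaled reads over the 61 regions called higher (left) and the 14 called lower (right) in each of the 17 recovered libraries. Water of 16 h (black, median 20.0) is the low library on the left, and the 2 GSNO with cPTIO libraries of 16 h (red, medians 20.6 and 28.6) are the low ones on the right.

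The 14 regions that fell, chosen in the same way, had the opposite layout, with the GSNO with cPTIO libraries low and water among the rest. Their medians were 20.6 and 28.6 scaled reads in GSNO with cPTIO a and b, against 113 in water and 57.2 to 140 in the 15 other libraries, water included, again with a TSA library highest. Both GSNO with cPTIO libraries were below the 15 others at 9 of the 14, against 2.06% of all regions. The choice of the 14 by these libraries and water partly builds in that rank. Over the 14 regions the median log2 fold was -2.07 for GSNO with cPTIO, -0.49 for GSNO and -0.48 for GSH, each in the authors' deposited table for that treatment. The authors' deposited tables called 0 of the 14 lower for GSNO and 0 for GSH, tables that call only 0.0225% and 0.0674% of all regions lower.

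The largest fall was at WLIM2a, which encodes a LIM-domain protein that bundles actin filaments. Its region (chromosome 2, 16658724 to 16659502) held 1 and 1 reads in GSNO with cPTIO a and b and 54 in water, and 25 and 127 in GSNO and 44 and 127 in GSH. It was at least 20.8-fold lower than water against a floor of 3 reads per library, with a log2 fold of -5.96 in the authors' deposited table (FDR 5.15e-12). The groups did not overlap, which the rule for naming required, and the limma test gave an adjusted p of 0.33 for a log2 fold of -5.18 ± 1.78 (SE). JMJD5, also named JMJ30, encodes a jumonji-domain histone demethylase linked to the circadian clock. It held 1 and 1 reads against 12 in water, at least 4.61-fold lower, but library a of GSNO and library a of GSH also held 1 read there. JMJD5 was thus low in 16 h libraries of each group, whereas the 3 h water libraries held 210 and 304 reads there.

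The next falls were smaller. AT2G01630 (9 and 1 reads against 48) and AT1G64330 (5 and 1 against 20) each had 1 GSNO with cPTIO library at a single read. TBL24 belongs to a family that acetylates cell wall polysaccharides, and it held 17.9 and 28.1 scaled reads against 111 in water. TMN6, a membrane protein of the endosome and Golgi system, held 19.4 and 25.7 against 97.0 scaled reads, and MRB1 held 11 and 18 unscaled reads against 50. PRDA1 is needed for plastid gene expression, and its 2 GSNO with cPTIO libraries differed, at 19.4 and 61.1 scaled reads against 169 in water. LpxB, a relative of a bacterial enzyme of lipid A synthesis, held 20.9 and 59.9 against 150, and PP2-A5, a phloem lectin relative, held 37.3 and 19.6 against 100. ALT3, an acyl-lipid thioesterase, held 34.3 and 36.7 against 119, and AT3G56270 held 41.8 and 31.8 against 155. Both GSNO with cPTIO libraries lay below water at each of these regions, which the rule for naming them required. At these 8 regions from TBL24 to AT3G56270, the log2 fold lay between -2.27 and -1.75 in the authors' deposited table.

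LZF1, also named BBX22, was the one region called lower by limma, and it is described for that reason, after its values were seen. It encodes a B-box zinc finger protein of light signalling that promotes seedling greening. Its region (chromosome 1, 29567246 to 29568309) held 88.0 and 120 scaled reads in GSNO with cPTIO and 285 in water, and 258 and 255 in GSNO and 229 and 211 in GSH. Both GSNO with cPTIO libraries were thus below the 5 other libraries of 16 h, as they were at 7.30% of all regions. The choice of LZF1 by these libraries and water partly builds in that rank. The limma log2 fold against water was -1.46 ± 0.24 (SE, adjusted p = 0.019), against GSNO -1.31 ± 0.20 (adjusted p = 0.078) and against GSH -1.09 ± 0.20 (adjusted p = 0.36). With GSNO and GSH together as the control and water out of the contrast, a comparison added after the data were seen, it was -1.20 ± 0.17 (adjusted p = 0.039), the one region called (0.00748%) beside 1392 (10.4%) at an unadjusted p under 0.05. That comparison uses the same GSNO with cPTIO libraries that led to LZF1 being described, so it is no independent support.

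Few regions of gene groups of nitric oxide biology and of seedling physiology were called, as among all regions, of which 0.561% were called. Across 13 lists the FDR of the authors' deposited table called 1 region higher, the calcium pump gene ACA8 of the ethylene, touch and calcium list (1 of 30 regions), and 0 lower. These lists are not full tallies of their themes: they hold chosen genes matched by name, so that ETR2, ACA4 and JMJD5, which were called, are in none of them. A gene without a name in the table used, such as AT1G07930, which was called, could enter none. The list of elongation factor and ribosomal names matched 19 of 27, so its 0 called regions do not speak for unmatched genes. ACA8 held 59.7 and 40.3 scaled reads in GSNO with cPTIO and 9.39 in water, but 99.5 and 140 in GSNO and 65.3 and 90.9 in GSH. The limma adjusted p of ACA8 was 0.29. The same list held TCH3, a calmodulin-like gene of the touch response, which was not called and is named after its values were seen. TCH3 held 1.49 scaled reads in a, which is the floor of 1 read, and 59.9 in b, against 119 in water.

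Photosynthesis genes lay mostly above 0 against water and the companions. Of their 40 regions 32 had a log2 fold above 0 in the authors' deposited table, against 6730 of 13362 regions, and the median was 0.14 against 0.0033. Both GSNO with cPTIO libraries lay above the 5 other libraries of 16 h at 13 of the 40 and below them at 0, against 8.44% and 7.30% of all regions. The median limma log2 difference of the list was 0.23 against GSNO and 0.32 against GSH. Summed over the 40 regions, scaled reads were 11354 and 10501 in GSNO with cPTIO and 9545 in water. The GSNO and GSH libraries held 8697 to 9370, so water was above them as well. Regions of like level were not set beside this list. The 13 were PSAD-2, PSBP-1, PSBO1, PSBO2, PETE1, LHCA3, LHCA4, LHCB4.1, LHCB6, PRK, GAPA, RBCS1B and RBCS3B, which serve light harvesting, electron transport and carbon fixation. PSBO1, a subunit of the water-splitting complex, was picked from the 13 after its values were seen. The 7 libraries held 403 and 279 (GSNO with cPTIO), 208 (water), 196 and 219 (GSNO) and 263 and 245 (GSH) scaled reads there. GAPA, a Calvin cycle dehydrogenase gene, held 201 and 180 scaled reads in GSNO with cPTIO, 97.0 in water, 93.9 and 113 in GSNO and 133 and 160 in GSH. GAPA (log2 fold 0.97, p = 0.021) and the Rubisco small subunit gene RBCS2B (1.23, p = 0.0070) had the smallest p of the list in the authors' deposited table, with FDR of 0.63 and 0.38, and reads of the near-identical Rubisco copies are uncertain. Against water, shoot marker genes moved the same way, with 6 of 7 regions above 0 and a median of 0.31, and 0 of 2 root marker regions were above 0 in the authors' deposited table. Against GSNO and GSH the median limma log2 differences were 0.23 and 0.39 for shoot markers and 0.27 and 0.22 for root markers. Summed over the 7 shoot marker regions, scaled reads were 1442 and 1197 in GSNO with cPTIO, 1152 in water and 998 to 1194 in the GSNO and GSH libraries. Summed over the 2 root marker regions they were 907 and 626, 831, and 568 to 727, and none of the 9 regions was at the floor in any of the 7 libraries. The part of tissue make-up in the photosynthesis values was not tested.

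**Figure D4:**
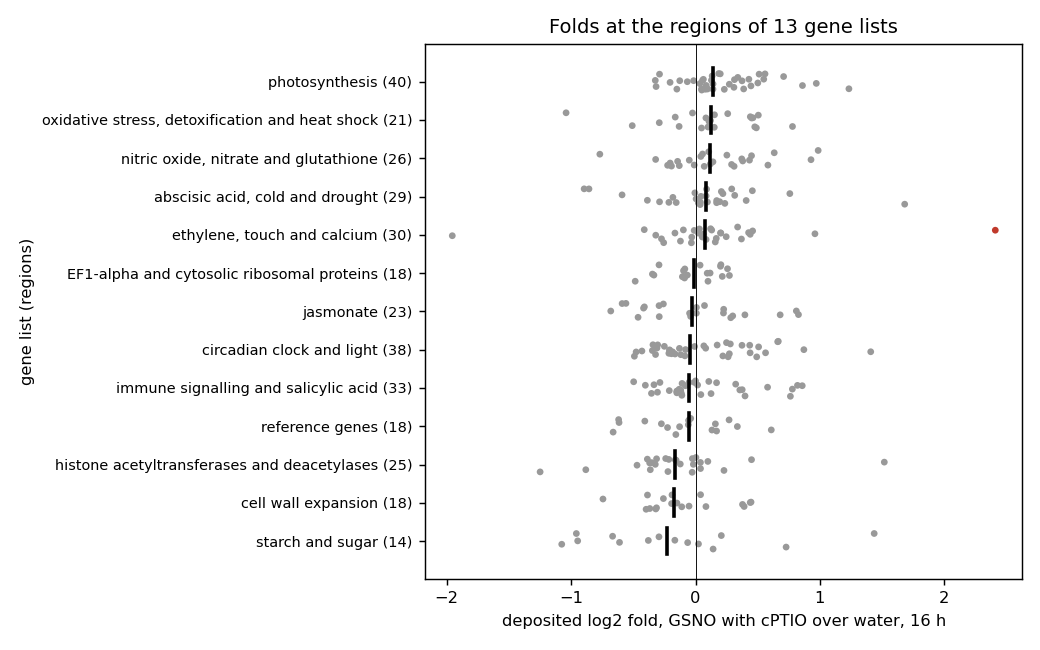
Each point is the authors' deposited log2 fold of GSNO with cPTIO over water at 1 region of a gene list, with the number of regions in brackets, and black bars are list medians. The red point is ACA8, the one called region, and list medians run from -0.23 (starch and sugar) to 0.14 (photosynthesis).

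The medians of the remaining lists lay on both sides of 0, from -0.23 for starch and sugar, -0.17 for cell wall expansion and -0.16 for histone acetyltransferases and deacetylases to 0.12 for oxidative stress, in the authors' deposited table. In the nitric oxide, nitrate and glutathione list 0 of 26 regions were called, beside 0.561% of all regions. GSH2, the glutathione synthetase gene, held 188 and 178 scaled reads against 92.3 in water (log2 fold 0.99, p = 0.019, FDR 0.60 in the authors' deposited table). The glutathione transferase gene GSTF8 held 215 and 155 against 97.0. Among histone acetyltransferase and deacetylase genes 0 of 25 regions were called, beside the same 0.561%, and 7 lay above 0. SGF29a, of the SAGA acetyltransferase complex, held 55.2 and 79.5 scaled reads against 23.5, and HAF2, an acetyltransferase gene, held 25.4 and 88.0 against 135. Of the 14 starch and sugar regions 4 had an unadjusted p under 0.05 in the authors' deposited table, 1 above water and 3 below, against 5.87% of all regions, among them the starch phosphorylase gene PHS2 (38.8 and 41.6 against 84.5) and the amylase gene AMY3 (89.5 and 133 against 214). Of the 21 regions for oxidative stress, detoxification and heat shock, the zinc finger gene STZ had the smallest p at 1 of its 2 regions, with 91.0 and 78.2 scaled reads against 174, and the superoxide dismutase gene CSD2 held 325 and 288 against 178.

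Of the matched genes in the abscisic acid, jasmonate, immune, clock, cell wall, reference and ribosomal lists, 0 regions were called, beside 0.561% of all regions. The clock gene ELF3 held 37.3 and 112 scaled reads in GSNO with cPTIO and 28.2 in water, and RVE2 held 143 and 115 against 70.4. The abscisic acid response factor ABF4 held 95.5 and 176 against 42.3 and the cold regulator CBF1 held 180 and 200 against 344. The salicylic acid receptor gene NPR4 held 158 and 160 against 87.7 and the TGA factor gene OBF5 146 and 171 against 92.3. The co-repressor gene TPL held 310 and 361 against 191 and the jasmonate repressor gene JAZ12 176 and 197 against 105. The cell wall genes XTH18 (83 and 81 unscaled reads against 119) and TCH4 (131 and 195 unscaled reads against 102) differed in direction, the authors' deposited table giving log2 values of -0.74 and 0.44. The tubulin genes TUB6 (113 and 128 against 191) and TUB4 (154 and 165 against 244) and the ribosomal genes RPL23AA (182 and 248 against 301) and SAG24 (179 and 139 against 200) lay below it. Each of these genes had an FDR above 0.17 in the authors' deposited table.

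The ethylene receptor gene ETR2 and the oxygen-sensing genes PCO1 and PCO2 were among the 61 that rose. PCO1 and PCO2 encode plant cysteine oxidases, which oxidise a cysteine at the start of certain transcription factors and so mark them for destruction, a step that uses oxygen. ETR2 held 236 and 287 scaled reads in GSNO with cPTIO and 68.9 in water, with 203 and 233 in GSNO and 204 and 207 in GSH (limma log2 fold 1.90, adjusted p = 0.0017). PCO2 held 136 and 205 in GSNO with cPTIO, 37.6 in water, 88.3 and 115 in GSNO and 139 and 106 in GSH (limma log2 fold 2.12, adjusted p = 0.070). PCO1 held 180 and 242 in GSNO with cPTIO, 50.1 in water, 1.40 and 73.4 in GSNO and 94.5 and 117 in GSH. PCO1 thus had both GSNO with cPTIO libraries above the 5 others of 16 h, as had 8.44% of all regions. Its choice by these libraries and water partly builds in that rank. The GSNO pair at PCO1 was far apart, and the limma adjusted p of PCO1 was 0.62. A list of 25 genes of low-oxygen responses was then drawn up because these 3 had been seen, so its counts are a description only. It had 16 regions, of which 3 were called, those same 3 genes that prompted it, beside 0.561% of all regions. The median log2 fold of the 16 was 0.14 in the authors' deposited table, and 10 lay above 0. LBD41, a transcription factor gene of the list, held 431 and 321 scaled reads in GSNO with cPTIO, 177 in water, 213 and 187 in GSNO and 260 and 248 in GSH (limma adjusted p = 0.070). The pyruvate decarboxylase gene PDC2 held 316 and 259 scaled reads against 252 in water, and the group VII factor genes ERF71 and ERF73 held 67.1 and 161 against 106 and 213 and 191 against 205.

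Set directly against GSNO alone, which asks what the scavenger adds, GSNO with cPTIO gave 0 regions at an adjusted p under 0.05 by limma, higher or lower, and 1056 (7.90%) at an unadjusted p under 0.05. Against GSH the limma counts were 0 and 1087 (8.14%). The 95% interval of the difference lay within 2-fold either way at 77.6% of regions against GSNO and at 78.1% against GSH, against 60.2% for water and 43.4% for the difference between 16 h and 3 h, and reached beyond 2-fold at the rest. Over the 61 regions that rose against water the median log2 difference was 0.24 against GSNO and 0.07 against GSH. Over the 14 that fell it was -1.67 and -1.42, and all 14 were below 0 in both comparisons, which use the same GSNO with cPTIO libraries as the choice of the 14. Leaving out library b of GSNO with cPTIO raised the limma counts to 324 against GSNO (37 higher, 287 lower) and 363 against GSH (60 higher, 303 lower), while leaving out library a gave 10 and 1, and leaving out library b of GSNO gave 11 against GSNO.

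The response over water differed between 16 h and 3 h at 24 regions by limma, 22 larger at 16 h (0.165%) and 2 smaller (0.0150%), with 995 (7.45%) at an unadjusted p under 0.05. Of the 24 regions, 20 were among the 61 that rose (0.457% of all regions) and 1 among the 14 that fell (0.105%). The same 16 h libraries of GSNO with cPTIO and water chose the 61 and 14, so this overlap is partly built in. At 3 h the authors' deposited table for GSNO with cPTIO called 0 of these 61 and 0 of these 14, beside 5 of all regions (0.0374%), and the median log2 fold of the 61 was 0.0004. At AT1G14130 the 3 h water libraries held 92 and 148 reads and the 3 h GSNO with cPTIO libraries 69 and 229, so that the single read of the 16 h water library stood apart. The 2 regions with a smaller response at 16 h were LZF1 and LHCA1, named after their values were seen. LZF1 held 124 and 239 reads at 3 h in GSNO with cPTIO and 101 and 217 in water. LHCA1, a photosystem I antenna gene, held 50 and 58 reads at 3 h in GSNO with cPTIO against 1 and 7 in water, and at 16 h 389 and 317 scaled reads against 322. Leaving out single libraries gave 9 (without GSNO with cPTIO of 3 h, library a) to 101 regions (without GSNO with cPTIO of 16 h, library b), and 12 without water of 3 h, library a.

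The peak lists bear on which of the water samples can be compared. GSNO with cPTIO had 10701 and 6031 peaks in replicates 1 and 2, and water had 6838 and 1200, means of 8366 ± 3302 and 4019 ± 3987 (SD, n = 2 each). These means could not be separated (exact permutation test, two-sided, p = 0.667), and 2 against 2 cannot give a p below 0.33. In both GSNO with cPTIO lists most nuclear peak midpoints lay in protein-coding genes (97.2% and 98.1%), as in water replicate 1 (97.8%), while in water replicate 2 the share was 37.6%. Water replicate 2 also had 73 plastid and 82 mitochondrial peaks, against 25 to 28 and 0 in the other 3 lists, and only 19 of the 13362 regions held one of its peaks. The labels and tables do not say which of the 2 water samples gave the single water library of the tables.

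Of the 6005 nuclear peaks in GSNO with cPTIO replicate 2, 96.7% overlapped a peak of replicate 1 by 1 base or more, and 54.7% of the 10672 of replicate 1 overlapped one of replicate 2. Of the 6809 in water replicate 1, 95.8% overlapped a peak of GSNO with cPTIO replicate 1 and 73.8% one of replicate 2. Regions with a peak in both GSNO with cPTIO lists numbered 5772, and 4949 of them had a peak in water replicate 1. The other 823, chosen from peaks of the same samples, had a median log2 fold of 0.47 in the authors' deposited table. The 190 regions with a peak in water replicate 1 and in neither GSNO with cPTIO list had a median of -0.69 in the authors' deposited table. Of the 61 regions that rose, 30 held a peak in GSNO with cPTIO replicate 1, 5 in replicate 2 and 0 in water replicate 1. Of all regions 77.5%, 44.3% and 50.2% held a peak in these lists, so that peaks were less frequent at the 61 in each list. Of the 14 that fell, 1 held a peak in GSNO with cPTIO replicate 1, 0 in replicate 2 and 4 in water replicate 1, also below those shares. At 3 h the 61 regions held peaks in 48 and 17 cases in the water lists and in 53 and 15 cases in the GSNO with cPTIO lists.

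**Figure D5:**
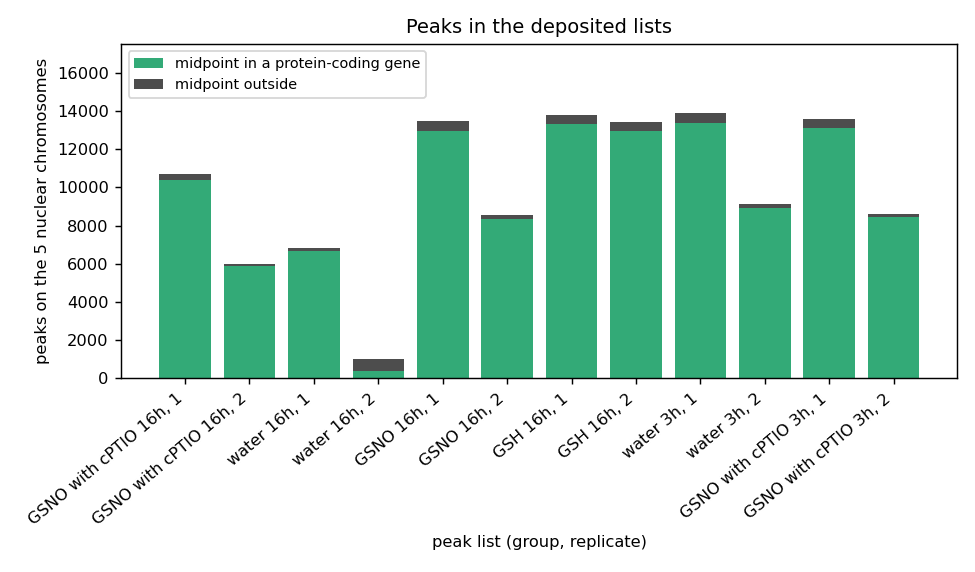
Bars count the peaks on the 5 nuclear chromosomes in each deposited list, split by whether the midpoint lies in a protein-coding gene (green) or outside (dark). The GSNO with cPTIO lists of 16 h hold 10672 and 6005 such peaks, and water replicate 2 of 16 h holds 1044, of which 393 are in genes.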

How the data were processed

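H3K9/14ac ChIP libraries of liquid-grown seedlings were compared. The authors deposited tables with the log2 mean of normalised reads per group, a log2 fold, and a p-value and FDR per region, per the file headers. DiffBind and edgeR and the builds TAIR10 and TAIR9 are named, without roles, per the submitters' processing notes. For the aligner and the peak caller no source used here gives a name. Coordinates are those of the deposited tables. Each group mean is built from whole reads, each multiplied by a factor of its library, and the reads of 17 libraries were recovered from them, whole within 1e-08 at every region. Their lowest value is 1 read, which was treated as a floor. After scaling by TMM factors (trims 0.3 and 0.05), log2(scaled reads + 1) was tested in R 4.3.3 by limma 3.58.1, two-sided and with a trend, and p-values were adjusted over all 13362 regions by Benjamini and Hochberg's method. The 7 libraries of 16 h entered the fits at that time, and all 17 the comparison with 3 h. Folds on the log2(value + 1) scale understate changes of low regions. Scripts were tested on simulated reads, where false calls exceeded the nominal rate for comparisons that use the lone water library and, less so, for that with GSNO, so their adjusted p-values may be too small. P-values measure the spread between the 2 libraries of each group other than water of 16 h, which adds none.

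A region was linked to the protein-coding gene sharing most bases, else to the nearest gene edge within 1000 bases, by a RefSeq table of TAIR10.1 without strand, of which 13044 regions overlapped a gene and 193 lay within that distance. Peak overlaps were computed with bedtools 2.31.1, after leaving out rows wider than 5000 bases, 1 in each list of GSNO with cPTIO and water. The text names the 12 largest rises and falls of the deposited fold at FDR under 0.05 with both libraries on the same side of water, up to 4 called regions per gene list, and otherwise the 2 with the smallest p. Others are named as chosen after their values were seen. The regions and gene lists were chosen with earlier results of these data known. Input libraries were not used. Alternatives are given in the closing section.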

Additional observations from a re-analysis of the deposited data

Results flagged for a closer look

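The response to GSNO with cPTIO over water differed between 16 h and 3 h, by a limma test of the difference itself, at 24 regions. All of these differences use the single water library of 16 h. Among the regions named above, the log2 response was larger at 16 h by 5.43 at AT1G07930, 5.36 at AT1G14130, 4.98 at AT2G34730, 4.61 at FBS4, 4.45 at CYP81H1, 4.15 at AT4G27270, 4.07 at BBX8, 4.06 at AT1G61150 and 3.48 at AT5G47430. It was larger by 2.40 at ACA8, 2.21 at STP1, 2.197 at PCO2 and 1.97 at ETR2. The difference was -1.68 at LZF1 and -3.74 at LHCA1. At LHCA1 the 3 h water libraries, at 1 and 7 reads, were the low ones.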

How the results depend on the processing

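Of the authors' deposited calls, 42 of 75 regions (37 higher, 5 lower) remained at an FDR under 0.01, all 75 were more than 2-fold from water, and 64 were left among regions with a log2 mean of at least 5. The limma test on recovered reads called 13. It called 30 without the trend, 89 with all libraries of 3 h and 16 h in the fit, and 49 to 274 when 1 GSNO with cPTIO library was left out; the water library could not be left out. With GSNO and GSH in place of water, added after the data were seen, it called 1. The log2 value then turned at AT4G27270 (-0.049), FBS4 (-0.73), AT2G34730 (-0.17), CYP81H1 (-0.28), BBX8 (-0.52), AT5G47430 (-0.049) and ACA8 (-0.95). Against water at 16 h, LHCA1, not called, lay at -0.026 without GSNO with cPTIO library a and at 0.27 without library b. Against GSNO the count was 0, 1 without the trend, and 0 to 324 with 1 library left out. Against GSH it was 0, 1 without the trend, and 0 to 363. For 16 h against 3 h it was 24, 12 at a pseudocount of 8, and 9 to 101 with 1 library left out. The cause was not tested. The other scalings and the filter changed no count by over 1.5 times. Of 255 planned single-region values, 227 kept their direction and side of the threshold, 22 passed it and 5 no longer did. No paired analysis was possible because the recovered libraries carry no replicate number and the tables hold a single water library of 16 h. A stricter peak score was not run, since the score is 0 in each row. A stricter overlap, 50% of the shorter peak, moved the overlaps with GSNO with cPTIO replicate 1 from 96.7% to 96.1% (replicate 2) and from 6523 to 6468 peaks (water replicate 1); of water replicate 2, 0 peaks passed. With 1590342 reads, the water library limits each comparison with water.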
